A study of Mus musculus with 9 samples.

Results

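Ly6a, Ly6c1, Ly6c2, Ly6e, Ly6i and Plac8 are 6 mouse genes, 5 of the LY6 family and 1 further gene of monocytes. They were picked by gene symbol and not by their levels, though with earlier results of these data known. The source was a table of 30588 genes measured by RNA-Seq in dendritic cells (DCs) of ΔGnas and WT mice. All 6 were found in it. The ΔGnas cells came from C57BL/6J mice with a floxed Gnas gene and a Cre recombinase driven by the CD11c promoter, and the WT cells from C57BL/6J mice. In both genotypes bone marrow was cultured for 6 days with GM-CSF and the cells carrying CD11c were taken on magnetic beads for RNA, which gave 4 ΔGnas libraries (replicates 3 and 4 labelled male, 6 and 7 labelled female) and 5 WT libraries (replicates 3 and 4 labelled male, 5, 6 and 7 labelled female). The study calls these biological replicates, and every p-value below measures the spread between these 9 libraries.

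Gnas encodes the G protein subunit that switches on adenylyl cyclase, so its loss removes a main route to cAMP. The CD11c-driven Cre is known to leave some Gnas in place. Gnas stood at 48.0, 63.6, 53.4 and 58.1 TPM (a level per length of transcript, scaled to the same total in every library) in ΔGnas DCs and at 532, 415, 404, 407 and 432 TPM in WT DCs. Its log2 fold change was -2.96 ± 0.16 (SE, edgeR quasi-likelihood test, adjusted p = 2.8e-05), so the labels held and some Gnas RNA remained.

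LY6 proteins are small, cysteine-rich proteins of the Ly6/uPAR fold that sit on the outer face of the plasma membrane through a glycosylphosphatidylinositol (GPI) anchor. Several of them are induced by interferons, and antibodies to them are widely used to name mouse blood cells. Ly6c2 carries most of the Ly6C antigen of classical (inflammatory) monocytes, the blood cells from which many of the DCs and macrophages of a GM-CSF culture arise. Ly6a encodes Sca-1, known from mouse blood stem cells and from interferon-treated leukocytes. Ly6c1 is best known from endothelial cells, and Ly6e, broadly expressed, limits the entry of some viruses. Plac8 is no LY6 gene: it encodes a small cysteine-rich intracellular protein found in monocytes, neutrophils and plasmacytoid DCs. Ly6C falls as monocytes become macrophages or DCs, so the level of these genes is one of the ways in which such cultures are compared.

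The 5 LY6 genes lie side by side. In GRCm38 (GENCODE M21) they occupy a stretch of 156.9 kb on chromosome 15, from 74955051 to 75111970, and are its only 5 protein-coding genes among 11 annotated genes. Ly6e (74955051 to 74959905) is on the plus strand, and Ly6i (74979534 to 74983430), Ly6a (74994877 to 74998031), Ly6c1 (75044018 to 75048830) and Ly6c2 (75108158 to 75111970) follow on the minus strand. Plac8 is on chromosome 5 (100553725 to 100572245, minus strand).

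The copies are alike enough to matter for counting. Over the coding sequence Ly6c1 and Ly6c2 shared 387 of 396 bases (97.7%), Ly6a and Ly6i 86.4%, and Ly6a and Ly6c1 83.8%, while Ly6e shared 55.5 to 58.0% with each of the other members. Of the 9 coding bases at which Ly6c1 and Ly6c2 differ, 6 fall in the first 90, which are printed here because reads over them are among those that tell the pair apart. In each line capitals mark the differing bases.
Ly6c1: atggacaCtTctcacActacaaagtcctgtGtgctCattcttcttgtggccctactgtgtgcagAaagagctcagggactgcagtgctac
Ly6c2: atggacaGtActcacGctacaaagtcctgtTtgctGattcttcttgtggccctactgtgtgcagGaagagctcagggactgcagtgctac
The reads were assigned by matching stretches of 31 bases. Of the distinct 31-base stretches in its annotated transcripts, Ly6c1 shared 46.8% with another gene (33.1% with Ly6c2), Ly6a 31.9%, Ly6c2 23.8%, Ly6i 19.2%, Ly6e 0.422% and Plac8 0%. The split of reads among Ly6a, Ly6c1, Ly6c2 and Ly6i is therefore an estimate, whereas Ly6e and Plac8 were counted almost free of it.

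Upstream of their starts Ly6c1 and Ly6c2 differ more than in the coding part. Over the 250 bases before 1 RefSeq start of each gene (GRCm38.p6, minus strand, chr15:75048838-75049087 for Ly6c1 and chr15:75111972-75112221 for Ly6c2), 210 bases could be aligned and 170 of these were identical, 81.0%. Each gene has 2 such windows, and this pairing had the most identical bases. In the other pairings 92 to 176 bases were aligned, and 80.7 to 90.2% of those were identical. The pair is printed because Ly6c2 was well expressed and Ly6c1 was not. Capitals mark bases that differ or have no partner within the 250 bases of the other gene. The starts are not at matching places, so bases at the ends may have a partner outside the window.
Ly6c1: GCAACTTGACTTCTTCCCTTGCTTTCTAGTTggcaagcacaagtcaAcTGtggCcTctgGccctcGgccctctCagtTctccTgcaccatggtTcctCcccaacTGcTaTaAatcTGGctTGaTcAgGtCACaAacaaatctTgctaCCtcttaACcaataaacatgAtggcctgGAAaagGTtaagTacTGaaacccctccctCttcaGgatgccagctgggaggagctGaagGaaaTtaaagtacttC
Ly6c2: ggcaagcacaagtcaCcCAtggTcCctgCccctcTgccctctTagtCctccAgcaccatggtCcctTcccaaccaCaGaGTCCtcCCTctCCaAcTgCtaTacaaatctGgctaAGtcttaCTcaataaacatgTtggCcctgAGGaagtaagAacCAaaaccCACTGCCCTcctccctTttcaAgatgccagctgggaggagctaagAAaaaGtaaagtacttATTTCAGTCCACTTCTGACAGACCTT
A window of Plac8 (chr5:100572206-100572455, minus strand) is given as well, since Plac8 is the member whose level differed between the genotypes. It has no capitals.
Plac8: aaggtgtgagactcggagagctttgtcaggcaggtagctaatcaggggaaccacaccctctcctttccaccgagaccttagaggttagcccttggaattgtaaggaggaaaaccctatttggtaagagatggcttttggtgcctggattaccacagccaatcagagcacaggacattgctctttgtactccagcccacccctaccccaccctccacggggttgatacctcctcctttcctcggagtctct
In the RefSeq windows of Ly6c1, Ly6c2 and Plac8, which run from 250 bases before to 50 bases after each start, both strands were searched for the cAMP response element TGACGTCA, its shorter form TGACG (contained in the longer one), the gamma-activated site TTCNNNGAA and the core of the interferon-stimulated response element GAAANNGAAA. None of the 6 windows held any of them. Among 32851 mouse promoters of the same length, 1.79% held TGACGTCA, 20.8% TGACG, 8.30% TTCNNNGAA and 3.44% GAAANNGAAA.

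Library totals were 37861469 to 49072920 estimated counts in ΔGnas DCs and 34252701 to 49427934 in WT DCs. Mitochondrial genes took 5.85 to 7.87% of the counts in ΔGnas libraries and 1.39 to 8.54% in WT libraries, with the 1.39% in WT replicate 3. The libraries of replicate 3 were the lowest of their genotype in Ly6a and in Ly6e. WT replicate 7 is labelled female but had 21.3 TPM of the Y-linked gene Ddx3y and 72.8 TPM of Eif2s3y, against 0.112 and 0.160 TPM of Ddx3y in WT replicates 5 and 6. No member gained or lost its call without ΔGnas replicate 3, WT replicate 3 or WT replicate 7 alone, and the sign of Ly6c2 changed without WT replicate 7.

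The level of the 6 genes spanned from Ly6e, at 408 TPM or more in every library, to Ly6c1, at 0.855 TPM or less. Ly6e was the highest and Ly6c1 the lowest member in 9 of 9 libraries. The genes between them did not keep 1 order. Ly6c2 was above Ly6a in all but 2 libraries (ΔGnas replicate 7 and WT replicate 5), Ly6a was above Ly6i in 5 of 9, and Ly6i was above Plac8 in 8 of 9, so neighbouring genes in this order, other than the highest and the lowest, could not be ranked beyond their spread over libraries. The 5 LY6 genes together made 756 to 1344 TPM in ΔGnas DCs and 489 to 1112 TPM in WT DCs, and Ly6e alone gave 70.4 to 76.1% of that sum in ΔGnas DCs and 65.8 to 90.4% in WT DCs.

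**Figure D1:**
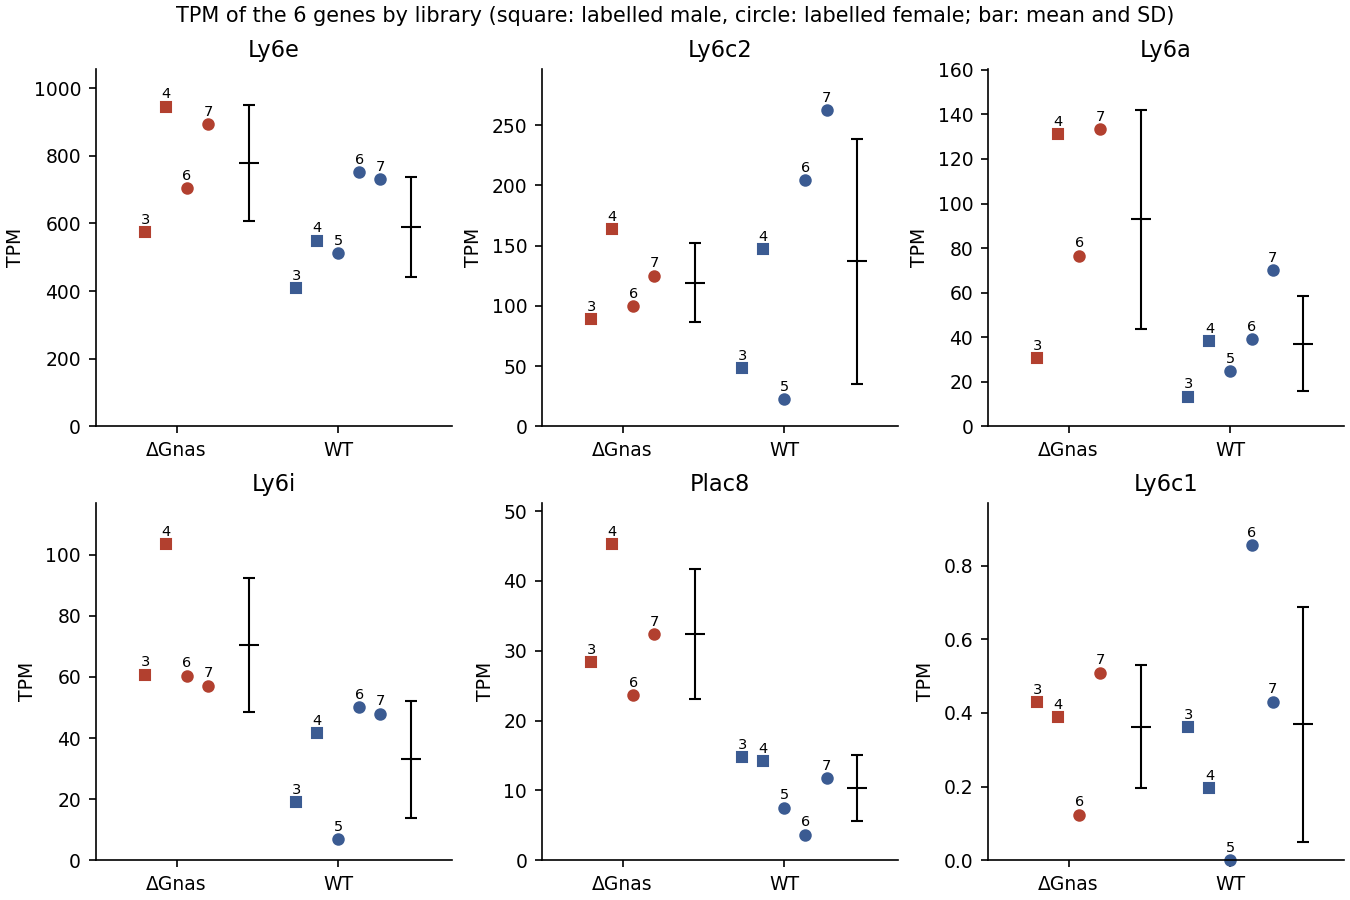
Level of each gene (TPM, linear axis from 0, a scale of its own for each gene) in the 4 ΔGnas and 5 WT libraries. Points are libraries with their replicate number, and bars give the mean and SD. In TPM, Plac8 and Ly6i were higher in every ΔGnas library than in any WT library. As TMM-scaled counts this held for Plac8 and for 6.57% of all tested genes, but not for Ly6i. The share of all genes so separated in TPM was not counted. The WT libraries spread widely for Ly6c2, between 22.4 and 262 TPM.

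In the unpaired comparison of the genotypes, Plac8 was the 1 member called, and it was higher in ΔGnas DCs. Of the 6 genes, 5 passed the filter of over 1 CPM (counts scaled to the library total) in at least 3 libraries, and Ly6c1 did not. At an adjusted p of 0.05 over the 11862 genes tested (edgeR quasi-likelihood test), 1 of the 5 was higher in ΔGnas DCs, where 5.41% of all tested genes were, and 0 were lower, where 4.15% were. The fitted log2 fold changes were above 0 for Plac8, Ly6a, Ly6i and Ly6e and below 0 for Ly6c2, and the median over all tested genes was -0.0043.

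Plac8 stood at 28.4, 45.3, 23.7 and 32.4 TPM in ΔGnas replicates 3, 4, 6 and 7, against 14.8, 14.2, 7.51, 3.66 and 11.7 TPM in WT replicates 3 to 7. The groups did not overlap in TPM or in TMM-scaled CPM. Of all tested genes 6.57% were likewise higher in every ΔGnas library than in any WT library on the TMM scale, and Plac8 was the 1 member among them. The means were 32.4 ± 9.28 TPM in ΔGnas DCs and 10.4 ± 4.72 TPM in WT DCs (SD, n = 4 and n = 5), a ratio of 3.13. The log2 fold change was 1.67 ± 0.37 (SE, edgeR, adjusted p = 0.0223). It kept its sign when any 1 library was left out (1.43 to 1.80), but the call was lost without ΔGnas replicate 4 (1.43, adjusted p = 0.0662) and without ΔGnas replicate 7 (1.65, adjusted p = 0.0600). Without WT replicate 7 it was 1.79 (adjusted p = 0.0335).

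**Figure D2:**
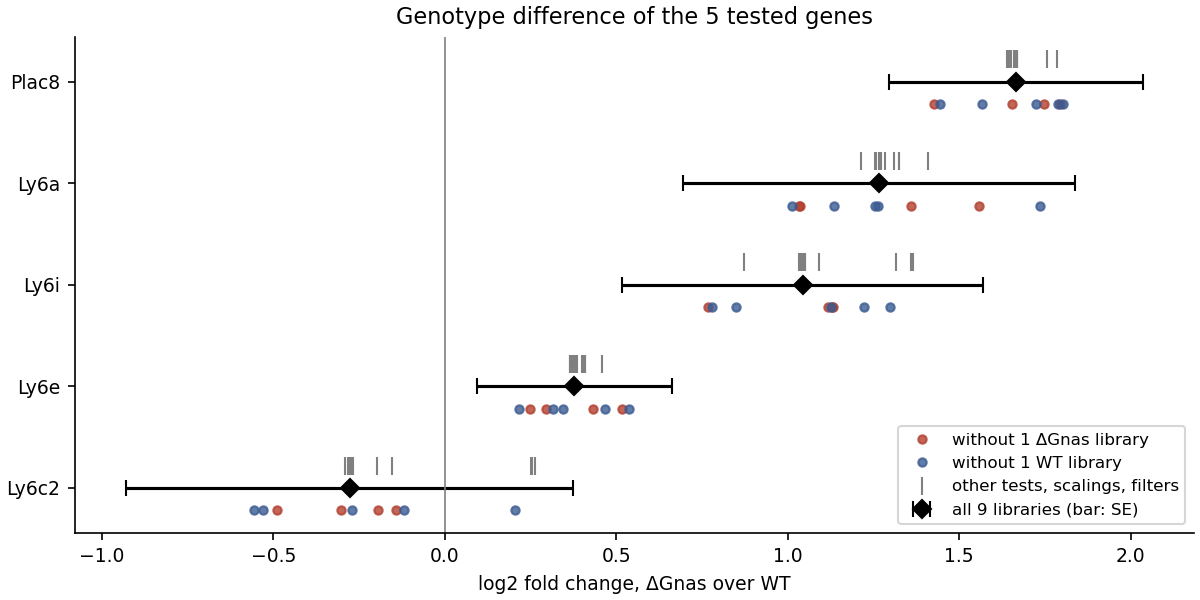
Log2 fold change of ΔGnas over WT for the 5 tested genes. Diamonds with bars give the estimate and SE over all 9 libraries, coloured points the estimate with 1 library left out, and grey ticks the other tests, scalings and filters. The estimates for Plac8 lay between 1.43 and 1.80 when a library was left out, and those for Ly6c2 between -0.56 and 0.20.

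Ly6a, which encodes Sca-1, stood at 30.7, 131, 76.6 and 133 TPM in ΔGnas DCs, against 13.3, 38.3, 24.9, 39.0 and 70.2 TPM in WT DCs. In 3 of the 4 ΔGnas libraries Ly6a was above every WT library, and ΔGnas replicate 3 lay below 3 WT libraries. The log2 fold change was 1.27 ± 0.57 (SE, edgeR) and did not pass the threshold (adjusted p = 0.213). It was 1.01 to 1.74 when 1 library was left out, 1.74 without WT replicate 7 (adjusted p = 0.0854), and 1.32 without both libraries of replicate 3 (adjusted p = 0.0691), an alternative added after the data had been seen. Within each genotype Ly6a ranged widely, by 4.34 times among ΔGnas and by 5.27 times among WT libraries.

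Ly6i, a near relative of Ly6a, stood at 60.7, 103, 60.4 and 57.2 TPM in ΔGnas DCs, against 19.01, 41.5, 6.90, 50.02 and 48.0 TPM in WT DCs. All ΔGnas libraries were above all WT libraries in TPM, a scale on which the share of all genes so separated was not counted. This separation depended on the scaling: as TMM-scaled CPM, ΔGnas replicate 3 had 56.0 and WT replicate 7 had 58.2. The log2 fold change was 1.04 ± 0.53 (SE, edgeR, adjusted p = 0.268), with 0.77 to 1.30 when 1 library was left out. ΔGnas replicate 4 alone reached 103 TPM, and the other 3 ΔGnas libraries lay within 57.2 to 60.7 TPM.

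Ly6c2, the gene behind Ly6C of classical monocytes, stood at 89.1, 163, 99.9 and 125 TPM in ΔGnas DCs, against 48.1, 147, 22.4, 204 and 262 TPM in WT DCs. The WT libraries lay on both sides of the ΔGnas libraries: 2 were below all of them and 2 above all of them. Ly6c2 varied by 11.7 times among WT libraries and by 1.83 times among ΔGnas libraries. The means were 119 ± 33.0 TPM in ΔGnas DCs and 137 ± 102 TPM in WT DCs (SD, n = 4 and n = 5). The log2 fold change was -0.28 ± 0.65 (SE, edgeR, adjusted p = 0.842), and it changed sign without WT replicate 7 (0.20, adjusted p = 0.874) and on the log2(TPM + 1) scale of limma-trend (0.25, adjusted p = 0.883). No direction can thus be given for Ly6c2.

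Ly6c1 was close to the limit of detection. It stood at 0.429, 0.389, 0.123 and 0.509 TPM in ΔGnas DCs, against 0.361, 0.196, 0, 0.855 and 0.4301 TPM in WT DCs, which is 4.70 to 22 estimated counts in ΔGnas libraries and 0 to 39.7 in WT libraries. At most 0.745% of the summed estimated counts of Ly6c1 and Ly6c2 went to Ly6c1 in any library. Summing both genes into 1 row left the log2 fold change at -0.28 ± 0.65 (SE, edgeR, adjusted p = 0.843). Since Ly6c1 did not pass the filter, it was tested only in a fit without one (log2 fold change -0.06, edgeR, adjusted p = 0.975).

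Ly6e, the most abundant member, stood at 575, 945, 705 and 893 TPM in ΔGnas DCs, against 408, 549, 512, 752 and 731 TPM in WT DCs. Its groups overlapped, with 2 ΔGnas libraries above every WT library and 2 WT libraries above the lowest ΔGnas library. The log2 fold change was 0.38 ± 0.29 (SE, edgeR, adjusted p = 0.470). By mean level Ly6e lay at the 98.3 percentile of the tested genes, and Ly6c2 at the 92.7, Ly6a at the 84.3, Ly6i at the 80.7 and Plac8 at the 60.5 percentile.

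Ly6i stood in a higher proportion to Ly6c2 in ΔGnas DCs. The ratio of Ly6i to Ly6c2 (in TPM) was 0.681, 0.633, 0.604 and 0.458 in ΔGnas DCs, against 0.395, 0.282, 0.308, 0.245 and 0.183 in WT DCs, so the groups did not overlap. This ratio was noticed after the values had been seen and is given as a description with no test. Both genes share stretches of sequence with their relatives, so their levels rest on an estimated split of reads. The ratio of Ly6c2 to Ly6a overlapped, at 0.937 to 2.90 in ΔGnas DCs and 0.899 to 5.24 in WT DCs.

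**Figure D3:**
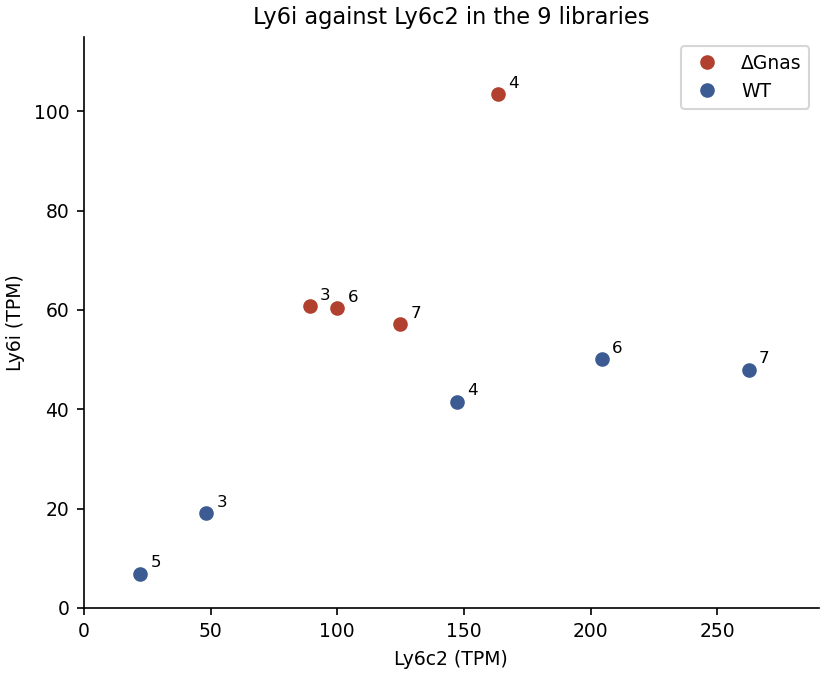
Ly6i against Ly6c2 (both in TPM, linear axes from 0), 1 point per library with its replicate number. The ΔGnas libraries show a ratio of Ly6i to Ly6c2 of 0.458 to 0.681 against 0.183 to 0.395 in WT.

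The profiles of the members over the 9 libraries were compared by the root-mean-square difference of their log2 CPM after centring each gene, so that a small value means a like pattern. Among the 5 tested members the nearest pair was Ly6c2 and Ly6i (0.62), followed by Ly6a and Ly6e (0.70), and the most distant was Ly6c2 and Plac8 (1.39). Every tested member had nearer genes elsewhere among 8770 genes of at least 5 CPM on average. As all genes of a library share its cells and its depth, these distances are descriptions. The neighbours were picked for a like pattern over the same 9 libraries, the genotype difference included, so their own genotype differences are given without a test and stand for no separate evidence.

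Nearest to Plac8 were Pglyrp1 (0.37), a peptidoglycan-binding protein of granulocytes, RP23-293I7.1 (0.39) and Fcrlb (0.45), an Fc receptor-like protein. Pglyrp1 stood at 26.7, 37.6, 17.6 and 16.6 TPM in ΔGnas DCs, against 10.8, 9.36, 7.84, 4.46 and 6.44 TPM in WT DCs. The fitted log2 fold changes were 1.69 for Pglyrp1, 1.31 for Fcrlb and 1.17 for RP23-293I7.1.

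**Figure D4:**
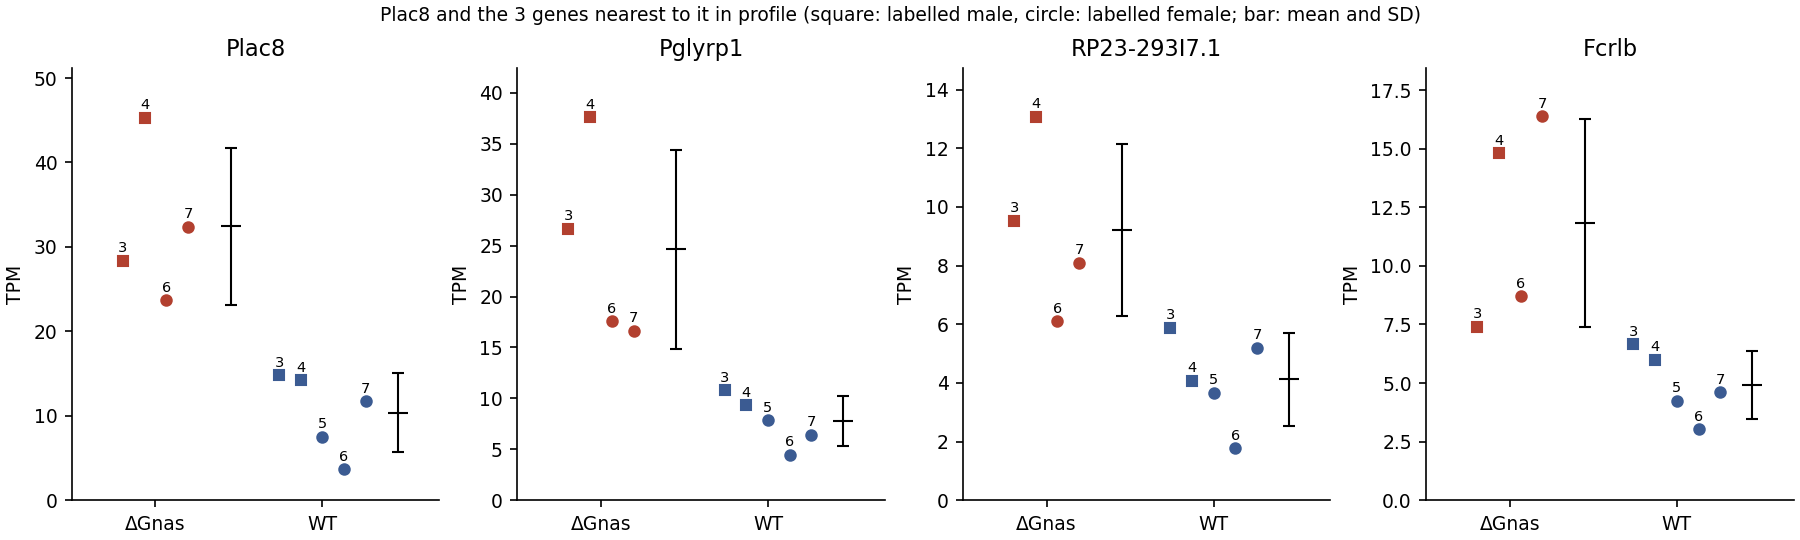
Plac8 and the 3 genes nearest to it in profile (TPM, linear axis from 0) in the 4 ΔGnas and 5 WT libraries, with replicate numbers, mean and SD. In Plac8 and Pglyrp1 the lowest ΔGnas library (23.7 and 16.6 TPM) was above the highest WT library (14.8 and 10.8 TPM).

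Nearest to Ly6a were Mfge8 (0.50), which bridges apoptotic cells to phagocytes, Klra17 (0.50), a lectin-like receptor of the Ly49 family, and Slc9a3r2 (0.52). Klra17 stood at 15.8, 64.7, 27.0 and 87.4 TPM in ΔGnas DCs, against 12.3 to 18.3 TPM in WT DCs. Nearest to Ly6i were Irg1 (0.53), the enzyme that makes itaconate, Hp (0.54), which encodes haptoglobin and is on the classical monocyte list, and Wfdc21 (0.56). Nearest to Ly6e were Cd52 (0.15), itself a GPI-anchored antigen of leukocytes, Eef1e1 (0.17) and Nop10 (0.17). Cd52 was abundant, at 2034 ± 215 TPM in ΔGnas DCs and 1561 ± 376 TPM in WT DCs (SD, n = 4 and n = 5).

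Nearest to Ly6c2 were Gm5150 (0.46), I830127L07Rik (0.48), an LY6-family gene, and Sirpb1c (0.49), which is on the classical monocyte list. Sirpb1c stood at 32.7, 78.3, 62.3 and 85.5 TPM in ΔGnas DCs, against 37.9, 125, 29.2, 139 and 142 TPM in WT DCs. As with Ly6c2, WT replicates 3 and 5 were low and WT replicates 4, 6 and 7 high. WT replicates 3 and 5 were also low in Hp (32.8 and 12.6 TPM, against 68.2, 104 and 106 TPM in the other WT libraries) and in Fn1, a fibronectin gene of monocytes (71.6 and 31.2 TPM, against 200.01, 278 and 340.4 TPM). ΔGnas replicate 3 had the least of both in its genotype, 40.1 TPM of Hp and 36.1 TPM of Fn1. In these bulk samples fewer cells of a type and less RNA per cell cannot be told apart.

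Outside the 6 members, 38 genes of the LY6 family were found, and 22 of them were at 0.2 TPM or less in every library. Of the others 5 passed the filter, and 0 were called (edgeR quasi-likelihood test), with 1 at an unadjusted p under 0.05, 1 called by edgeR's exact test and 1 by DESeq2. Over all 11862 tested genes the exact test called 1464 and DESeq2 1769. The all-gene number at an unadjusted p under 0.05 is not given here. Ly6d, known from B-lineage cells and plasmacytoid DCs, had 9.60 ± 4.21 TPM in ΔGnas DCs and 3.82 ± 1.81 TPM in WT DCs (SD, n = 4 and n = 5, log2 fold change 1.33, edgeR, adjusted p = 0.0984). Plaur, the urokinase receptor, was the most abundant of them, at 256 to 418 TPM in ΔGnas DCs and 205 to 431 TPM in WT DCs (log2 fold change 0.06). Cd59a and Cd59b, inhibitors of complement, had log2 fold changes of 0.11 and -0.40, and I830127L07Rik one of 0.51. Ly6g, the marker of neutrophils next to this cluster, was at 0 to 0.456 TPM in ΔGnas DCs and 0.136 to 1.02 TPM in WT DCs.

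Of 32 tested genes that make and attach the GPI anchor, on which the LY6 proteins depend, 0 were higher and 1 was lower in ΔGnas DCs, against 5.41% and 4.15% of all tested genes. The 1 was Tmem8, a GPI-specific phospholipase, at 13.9 to 29.9 TPM in ΔGnas DCs and 25.5 to 42.4 TPM in WT DCs (log2 fold change -0.86, edgeR, adjusted p = 0.0271). In 7 of the 9 fits with 1 library left out 0 genes of the list were called, with ΔGnas replicate 3 and WT replicate 6 the exceptions. The median log2 fold change of the list was 0.10. Pgap2, which remodels the lipid of the anchor, had the highest mean level over the 9 libraries, at 113 to 216 TPM in ΔGnas DCs and 101 to 178 TPM in WT DCs.

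Of 48 tested interferon-response genes, 1 was higher and 1 was lower in ΔGnas DCs, where 5.41% and 4.15% of all tested genes were. The number called depended on the test: the exact test called 5 and DESeq2 7, and 14 were at an unadjusted p under 0.05. Over all 11862 tested genes the exact test called 1464 and DESeq2 1769. The all-gene number at an unadjusted p under 0.05 is not given here. By the edgeR quasi-likelihood test the number called in the list was 1 to 7 when 1 library was left out, the 7 without ΔGnas replicate 3. The fitted log2 fold change was above 0 for 39 of the 48, with a median of 0.34. Samd9l, an antiviral gene, had a log2 fold change of 0.75 ± 0.14 (SE, edgeR, adjusted p = 0.0120). Mx2, another antiviral gene, had one of -0.98 ± 0.26 (adjusted p = 0.0398). Bst2, the gene of the list with the highest mean over all 9 libraries though not within either genotype, had 155 to 243 TPM in ΔGnas DCs and 206 to 407 TPM in WT DCs (log2 fold change -0.59, adjusted p = 0.155). The summed level of the list was 1383 to 2223 TPM in ΔGnas DCs and 1536 to 2470 TPM in WT DCs, highest in WT replicate 3. Much of this sum came from Bst2, Mx1 (log2 fold change -1.03), Psmb8 (-0.10) and Ifi27l2a (0.72). Among 9 interferon receptors and their kinases 0 were called (2 at an unadjusted p under 0.05, 1 by the exact test, 1 by DESeq2, and 1 by edgeR without ΔGnas replicate 3). Jak2, the highest by the mean over the 9 libraries, had 94.9 to 258 TPM in ΔGnas DCs and 158 to 340 TPM in WT DCs.

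**Figure D5:**
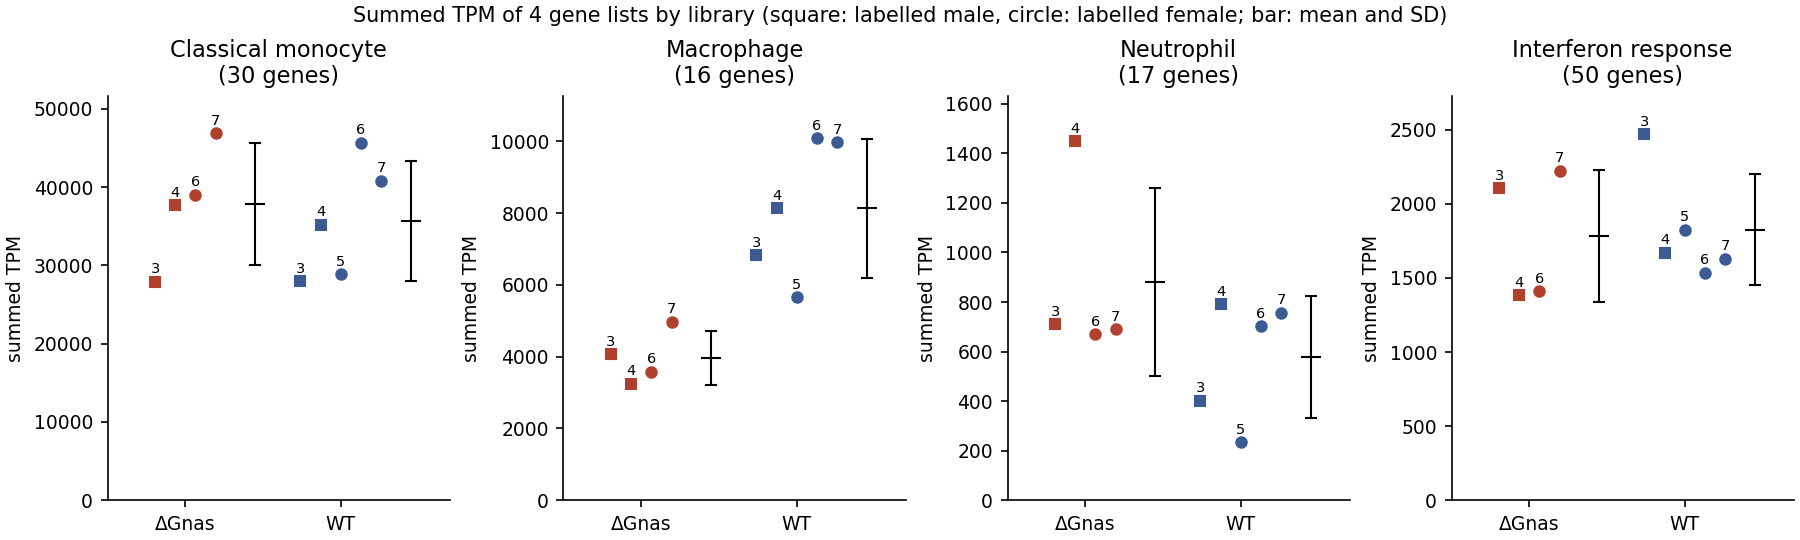
Summed level (TPM, linear axis from 0) of 4 gene lists without the 6 members, in the 4 ΔGnas and 5 WT libraries with replicate numbers, mean and SD. The macrophage genes did not overlap between the genotypes (3247 to 4979 TPM in ΔGnas against 5654 to 10089 TPM in WT), while the classical monocyte, neutrophil and interferon genes did. How often sums of other genes separate in this way was not tested.

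Classical monocyte genes other than the members were all expressed, 30 of 30 passing the filter. Of these 2 were higher and 1 was lower in ΔGnas DCs, against 5.41% and 4.15% of all tested genes. The median log2 fold change was 0.11. Ms4a4c, a membrane protein gene of monocytes, rose by 0.99 on the log2 scale (18.4 ± 4.79 TPM in ΔGnas DCs and 9.31 ± 1.44 TPM in WT DCs, SD, n = 4 and n = 5, edgeR adjusted p = 0.0220). Chil3, a chitinase-like secreted protein, rose by 1.5 on the log2 scale (142 ± 79.1 TPM in ΔGnas DCs and 51.4 ± 21.3 TPM in WT DCs, adjusted p = 0.0356). Mnda, an interferon-inducible nuclear protein, fell by 1.79 on the log2 scale (4.65 ± 2.62 TPM in ΔGnas DCs and 15.6 ± 4.59 TPM in WT DCs, adjusted p = 0.0289). Without ΔGnas replicate 4 edgeR called 0 of the 30, and without ΔGnas replicate 7 it called 1. Lyz2, the lysozyme of myeloid cells, made most of the summed level, with 19897 to 36705 TPM in ΔGnas DCs and 19443 to 36128 TPM in WT DCs. The summed level was 27920, 37674, 39056 and 46892 TPM in ΔGnas DCs, against 27945, 35207, 28864, 45695 and 40837 TPM in WT DCs. WT replicates 3 and 5, the lowest in Ly6c2, were also the lowest WT libraries in this sum.

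Of 17 tested genes of non-classical monocytes, which lack Ly6C, 4 were higher and 0 lower in ΔGnas DCs. Over all tested genes the shares were 5.41% and 4.15%. The fitted log2 fold change was above 0 for 9 of the 17, with a median of 0.31. Among those below 0 were Ear2 (-1.15), Nr4a2 (-1.01), Fcgr4 (-0.37) and Treml4 (-0.12), none of them called. The 4 were Pglyrp1, Spn (leukosialin), Ace (angiotensin-converting enzyme) and Eno3 (an enolase). Pglyrp1, a gene of granulocytes as well, had a log2 fold change of 1.69 ± 0.28 (SE, edgeR, adjusted p = 0.0069). Spn stood at 24.1 ± 7.55 TPM in ΔGnas DCs and 11.9 ± 3.41 TPM in WT DCs (SD, n = 4 and n = 5). Ace stood at 3.98 ± 1.89 TPM in ΔGnas DCs and 1.22 ± 0.594 TPM in WT DCs, and Eno3 at 37.8 ± 13.9 TPM in ΔGnas DCs and 17.3 ± 5.19 TPM in WT DCs. Between 1 and 4 of the 17 were called when 1 library was left out, the 1 without ΔGnas replicate 6 or WT replicate 4. Gngt2, a G protein gamma subunit with the highest mean of the list over the 9 libraries, stood at 312 to 368 TPM in ΔGnas DCs and 161 to 291 TPM in WT DCs (log2 fold change 0.47, edgeR, adjusted p = 0.188). The summed level of the list overlapped, at 751 to 965 TPM in ΔGnas DCs and 792 to 1041 TPM in WT DCs.

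Markers of other cell types were read beside the members. Each count of called genes below can be set against 5.41% higher and 4.15% lower among all tested genes. The markers of DCs were present. Itgax, which encodes CD11c, was at 331 to 415 TPM in ΔGnas DCs and 88.3 to 279 TPM in WT DCs, and H2-Ab1, an MHC class II chain, at 5379 to 5824 TPM in ΔGnas DCs and 3530 to 5598 TPM in WT DCs. Of 21 tested DC genes 4 were higher and 2 lower in ΔGnas DCs (1 to 9 called when 1 library was left out, the 1 without ΔGnas replicate 4, ΔGnas replicate 7 or WT replicate 4, the 9 without ΔGnas replicate 3, and 3 without WT replicate 7). Cd24a, found on a subset of DCs, was among the higher ones, at 174 to 284 TPM in ΔGnas DCs and 84.2 to 142 TPM in WT DCs (edgeR, adjusted p = 0.0134). The lower ones were Zbtb46, a transcription factor of classical DCs, at 7.42 to 14.3 TPM in ΔGnas DCs and 13.2 to 25.3 TPM in WT DCs (log2 fold change -0.80, edgeR, adjusted p = 0.0228), and Ccr7, the receptor by which mature DCs migrate, at 155 to 763 TPM in ΔGnas DCs and 661 to 1379 TPM in WT DCs (log2 fold change -1.43, edgeR, adjusted p = 0.04998). Cd74, the invariant chain, had the highest level of the list, at 13336 to 16525 TPM in ΔGnas DCs and 9128 to 17639 TPM in WT DCs. Of 16 macrophage genes 14 were tested. Of these 14 tested macrophage genes 7 were lower and 0 higher in ΔGnas DCs, C1qb, C1qc and Fcgr1 among them, and the median log2 fold change was -0.56. Between 4 and 7 were called when 1 library was left out, the 4 without ΔGnas replicate 4. Apoe, an apolipoprotein with the highest mean of the list over the 9 libraries, stood at 600 to 1077 TPM in ΔGnas DCs and 981 to 5291 TPM in WT DCs (log2 fold change -2.22, edgeR, adjusted p = 0.0321). C1qb, a complement subunit of macrophages, stood at 246, 44.4, 56.3 and 91.2 TPM in ΔGnas DCs, against 972, 857, 849, 1311 and 1024 TPM in WT DCs. The fitted log2 fold change was above 0 for 3 of the 14, Cd68 (0.45), Cd63 (0.14) and Emr1 (0.01). The genotype with more Plac8 had the lower sum of macrophage genes, a sum that rests in part on Apoe and C1qb. The part of macrophages in the members' levels was not tested.

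Of 17 neutrophil genes 12 passed the filter, of which 0 were called (edgeR, with 2 at an unadjusted p under 0.05, 1 by the exact test and 1 by DESeq2), and their median log2 fold change was 0.93. Over all 11862 tested genes the exact test called 1464 and DESeq2 1769. The all-gene number at an unadjusted p under 0.05 is not given here. The summed level of the neutrophil genes was 711, 1451, 669 and 689.6 TPM in ΔGnas DCs, against 402, 792, 234, 703 and 757 TPM in WT DCs. ΔGnas replicate 4, the highest library in Plac8 and Ly6i, was also the highest in this sum, with S100a8 at 490 TPM and Ngp at 28.8 TPM. Mmp8, a collagenase and the neutrophil gene of highest mean level, was not highest there: it stood at 157, 437, 485 and 328 TPM in ΔGnas DCs, against 96.7, 471, 107, 557 and 417 TPM in WT DCs (log2 fold change 0.05). Without ΔGnas replicate 4 the log2 fold change of Plac8 was 1.43 and that of Ly6i 0.77. The part of neutrophils in the levels of Plac8 and Ly6i was not tested. Within the list, Ly6g was at 0 to 0.456 TPM in ΔGnas DCs and 0.136 to 1.02 TPM in WT DCs. Elane was at 0.487 TPM or less in ΔGnas DCs and 0.746 TPM or less in WT DCs. Other genes of the list were far higher, Mmp8 among them. S100a8 stood at 82.2 to 490 TPM in ΔGnas DCs and 64.8 to 165 TPM in WT DCs.

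Plasmacytoid DCs also carry Plac8 and Ly6d. Of 13 genes of these cells 12 were tested, and 2 of them were higher and 0 lower in ΔGnas DCs. Of all tested genes 5.41% were higher and 4.15% lower. Leaving out 1 library gave 0 to 2 calls, with 0 without ΔGnas replicate 4, ΔGnas replicate 7 or WT replicate 3. The fitted log2 fold change was above 0 for 8 of the 12, with a median of 0.41. It was below 0 for Bst2, Tcf4 (-0.11), Spib (-0.15) and Runx2 (-0.01), none of them called. Siglech, their lectin receptor, stood at 17.9, 14.8, 9.77 and 20.6 TPM in ΔGnas DCs, against 4.57, 8.46, 3.10, 3.34 and 6.57 TPM in WT DCs (log2 fold change 1.57, edgeR, adjusted p = 0.0234), and Cox6a2 at 3.97 to 12.2 TPM in ΔGnas DCs and 0.134 to 2.43 TPM in WT DCs (log2 fold change 2.78, adjusted p = 0.0366). The summed level of the list was 263 to 379 TPM in ΔGnas DCs and 278 to 470 TPM in WT DCs. Most of it was Bst2 (log2 fold change -0.59), which other cells express too. The part of plasmacytoid DCs in the level of Plac8 was not tested.

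Lists were also read for the cells that carry Ly6a or Ly6c1 outside the myeloid line. Stem and progenitor genes summed to 196 to 266 TPM in ΔGnas DCs and 174 to 221 TPM in WT DCs. Most of it was Cd48, which other leukocytes express too, at 145 to 199.9 TPM in ΔGnas DCs and 99.6 to 151 TPM in WT DCs. Of 8 tested genes of stem and progenitor cells 1 was lower in ΔGnas DCs, Kit, at 3.41 to 6.33 TPM in ΔGnas DCs and 7.88 to 20.3 TPM in WT DCs (edgeR, adjusted p = 0.0271), with 0 called without ΔGnas replicate 4, ΔGnas replicate 7 or WT replicate 7 and 2 without ΔGnas replicate 3. Endothelial and stromal genes summed to 4.47 to 10.9 TPM in ΔGnas DCs and 4.35 to 10.1 TPM in WT DCs, and 0 of their 2 tested genes were called (edgeR, with 2 at an unadjusted p under 0.05, 0 by the exact test and 2 by DESeq2, and 1 by edgeR without ΔGnas replicate 3). Over all 11862 tested genes the exact test called 1464 and DESeq2 1769. The all-gene number at an unadjusted p under 0.05 is not given here. Pecam1, which encodes CD31, stood at 1.67 to 6.91 TPM in ΔGnas DCs and 1.46 to 2.68 TPM in WT DCs. T and NK cell genes summed to 8.30 to 20.3 TPM in ΔGnas DCs and 6.45 to 10.6 TPM in WT DCs, with Cd3e at 0.241 TPM or less in every library and 2 of 6 tested genes, Cd4 and Cd3g, higher in ΔGnas DCs (0 without ΔGnas replicate 4, ΔGnas replicate 7 or WT replicate 3). Of the B cell genes Blnk, which myeloid cells express as well, gave nearly all of the sum and was higher in ΔGnas DCs (51.7 to 81.2 TPM, against 30.6 to 34.0 TPM in WT DCs). Among 5 tested genes of mast cells, basophils and eosinophils 1 was called (2 without ΔGnas replicate 3): Siglecf rose to 16.6 to 33.5 TPM in ΔGnas DCs, against 3.94 to 8.10 TPM in WT DCs (log2 fold change 2.18, edgeR, adjusted p = 0.00125).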

How the data were processed

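The authors removed adapters with BBDuk, matched the stranded mRNA reads of 9 cultures to transcripts by kallisto and summed transcripts by tximport. The submitters' notes also name FastQC and edgeR. TPM and estimated counts were deposited side by side. In each library the deposited estimated counts are the TPM values times a constant, so gene length plays no part in them. They were rounded for testing, and 32 of 30620 rows, which name no gene and hold 0.0843 to 0.121% of the counts, were dropped. edgeR 4.0.16 in R 4.3.3 (quasi-likelihood, TMM factors) was run on the 11862 genes above 1 CPM in 3 or more libraries, with Benjamini-Hochberg adjustment over all of them, and was tested on simulated counts. Groups came from the sample titles.

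Alternatives were edgeR's exact test, DESeq2 1.42.0, limma 3.58.1 (voom, and trend on log-scale TPM), other scalings and filters, a replicate block, sex as a covariate and leaving out each library. For the covariate, sex was as labelled, so WT replicate 7 entered as female despite its Y-linked RNA. Counts rescaled by transcript length and the fit without both libraries of replicate 3 were added after seeing the data. Coordinates and transcripts came from GENCODE M21 (GRCm38). RefSeq promoters (GRCm38.p6) matched 3 of the 6 members. Sequences were aligned with Biopython 1.88.

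The members and gene lists were chosen with earlier results of these data known. Named beside the members were Gnas, the other tested LY6 genes, up to 4 called genes and the most abundant gene of each list, and the 3 genes nearest to each member in profile. Fn1, S100a8, Ngp, Elane, Ly6g, Cd3e, Ccr7 and Ddx3y were named after their values were seen. So were Cd68, Cd63, Emr1, Tcf4, Spib, Runx2, Ear2, Nr4a2, Fcgr4, Treml4, Mx1, Psmb8 and Ifi27l2a.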

Additional observations from a re-analysis of the deposited data

Results flagged for a closer look

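In 6 of 60 groups of 4 or 5 libraries that were examined, 1 library lay far from the others of its genotype, and chance alone flags about 1 in 20 such groups. Ly6i stood at 103 TPM in ΔGnas replicate 4, against 57.2 to 60.7 TPM in the other ΔGnas libraries. In the same library the neutrophil genes summed to 1451 TPM, against 669 to 711 TPM in the other ΔGnas libraries. Gnas stood at 532 TPM in WT replicate 3, against 404 to 432 TPM in the other WT libraries. The GPI anchor genes summed to 852 TPM in ΔGnas replicate 3, against 726 to 747 TPM in the others of its genotype. ΔGnas replicate 7 was the highest ΔGnas library in the summed plasmacytoid DC genes, at 379 TPM against 263 to 281 TPM, and in the summed B cell genes, at 84.2 TPM against 53.5 to 58.8 TPM.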

How the results depend on the processing

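Plac8 was called under 20 of 22 alternatives, and the log2 fold change was 1.43 to 1.80 when 1 library was left out, with the call lost without ΔGnas replicate 4 and without ΔGnas replicate 7. Without both libraries of replicate 3 it was 1.82. Ly6a was 1.01 to 1.74, Ly6e 0.22 to 0.54 and Ly6i 0.77 to 1.30 in those fits, with no call. Ly6c2 was -0.56 to 0.20, and it turned positive without WT replicate 7 (0.20), under limma-voom (0.25) and by limma-trend with a pseudocount of 1 (0.25) or 0.1 (0.26) on TPM. The same 4 settings gave 0.20, 0.25, 0.25 and 0.26 for Ly6c1 and Ly6c2 as 1 row. The cause was not tested. Gnas was called under every alternative. The number of genes called was 1134, against 1769 by DESeq2, 740 with library totals in place of TMM, and 519 to 1586 when 1 library was left out (580 without ΔGnas replicate 4, 611 without ΔGnas replicate 6, 519 without ΔGnas replicate 7 and 655 without WT replicate 4).

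Replicate numbers occur in both genotypes, but same-numbered libraries did not deviate together in every pair (r = 0.34, -0.07, 0.33 and 0.21 for numbers 3, 4, 6 and 7), so the numbers were not taken as pairs. Of the ΔGnas libraries, 3 of 4 correlated best with the WT library of their own number and replicate 4 with WT replicate 7, a hint from the data and not the design. With the replicate block Ly6a passed the threshold (log2 fold change 1.21, edgeR, adjusted p = 0.0204), and the other members kept their side of it. Of 195 counts of called genes in the lists under the alternatives, 124 stayed within 1.5 times the value given and 71 did not. Ly6c1 had at most 39.7 estimated counts, and how large a difference could be detected at this depth was not tested.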
